A study of Mus musculus with 4 samples.

Results

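Synaptic vesicle machinery was followed through 9 genes, all of which were listed in each of the 4 expression tables, among 13149 genes listed in every table. The genes were chosen by name: the SNARE genes Snap25 and Vamp2, the synaptotagmins Syt1 and Syt11, the complexin Cplx2, the vesicle GTPase Rab3a, the vesicle membrane genes Syp and Sv2a, and the synapsin Syn1. The tissue was mouse medulloblastoma of the sonic hedgehog (SHH) subgroup, a cerebellar tumour of granule neuron progenitors. There was 1 group of 4 untreated end-point tumours from Ptch1+/- mice that had been irradiated at birth, so the germline loss of 1 Ptch1 copy and the irradiation were shared by every sample; the labels used here give no age, sex or strain background. Frozen suspensions were thawed, sorted for live cells and profiled with the 10x Genomics platform, and the labels name separate tumours without naming the animals, so the replicate is the tumour.

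At a chemical synapse, transmitter is loaded into vesicles that dock at the active zone, where a vesicle SNARE and membrane SNAREs zip together and drive fusion. Synaptotagmins sense the calcium that triggers this step, complexins bind the assembled SNAREs, Rab3 GTPases mark vesicles for docking, and synapsins hold vesicles in reserve. In the cerebellum, granule neurons acquire these genes as they leave the cell cycle and form parallel fibre synapses. Many neuronal vesicle genes are held low outside neurons by the repressor REST, which binds a long element called RE1.

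Cell classes were rebuilt from the tables without the 9 genes. The classes are called "-like" because they rest on marker genes, and they were drawn from other genes of the same cells, which the p-values below do not take into account. Of 6488 cells, neuron-like cells numbered 42, 494, 197 and 114 in tumours 1 to 4. Progenitor-like cells, which join granule progenitor-like, cycling-like and mixed-phase clusters, numbered 407, 1517, 782 and 427. In neuron-like cells 9 or 10 of 12 neuron markers reached 10 CPM (UMIs per 1000000 UMIs of the class, a UMI being a unique molecular identifier that marks 1 counted molecule), and their summed level was 6094 to 13385 CPM against 1144 to 3217 in granule progenitor-like cells. The 13 granule progenitor markers summed to 3597 to 5705 CPM in neuron-like cells and to 3112 to 7124 in granule progenitor-like cells, so the neuron-like cells still carried the lineage's markers. In neuron-like cells GABAergic markers were at 0 and Purkinje markers summed to at most 5.30 CPM. The 3 unipolar brush cell markers summed to 29.1 to 74.1 CPM there, against 15.6 to 50.6 in granule progenitor-like cells. The tables held 10458431 to 23439893 UMIs per tumour, with a median per cell of 6799 to 15283.5. Tumour 4 stood apart by its immune cells, with 462 myeloid-like and 384 neutrophil-like cells, and between 0 and 7 cell barcodes were shared by any pair of tumours.

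The stretch before the RefSeq transcription start (GRCm38.p6) was read for the 7 of 9 genes matched by symbol, which have 9 windows because Rab3a and Syt1 each have a second start. Printed are Rab3a and Syn1, members that were higher in neuron-like cells, and Cplx2, the member that was not, each 5′ to 3′ on the gene's strand and without bases that GENCODE M21 already counts as transcribed. Capitals mark TTCAGCACC, the first part of the RE1 element, and the cyclic AMP response motif TGACGTCA in Syn1, and in Rab3a the shorter form TGACGT, which lies on the opposite strand and therefore reads as its reverse complement.
Rab3a (chr8:70754453-70754678, + strand): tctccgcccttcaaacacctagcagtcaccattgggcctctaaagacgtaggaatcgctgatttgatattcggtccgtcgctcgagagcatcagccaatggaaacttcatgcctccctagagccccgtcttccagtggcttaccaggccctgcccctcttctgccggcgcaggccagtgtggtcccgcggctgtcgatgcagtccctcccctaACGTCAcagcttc
Syn1 (chrX:20921005-20921168, - strand): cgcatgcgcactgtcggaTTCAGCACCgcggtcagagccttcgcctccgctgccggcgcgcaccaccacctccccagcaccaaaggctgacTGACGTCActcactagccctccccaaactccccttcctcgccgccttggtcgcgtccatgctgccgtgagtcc
Cplx2 (chr13:54302306-54302555, + strand): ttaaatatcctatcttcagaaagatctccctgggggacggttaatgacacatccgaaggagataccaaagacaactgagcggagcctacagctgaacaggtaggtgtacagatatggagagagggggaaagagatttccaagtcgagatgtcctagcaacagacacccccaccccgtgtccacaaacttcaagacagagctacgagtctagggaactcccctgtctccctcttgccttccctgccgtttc

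In the 250 bases before the start, searched on both strands, TTCAGCACC was found in 1 of the 9 windows of these genes, that of Syn1, 232 bases before the start, and in 0.301% of all 32851 windows of that length. TGACGTCA was found in Syn1, 159 bases before the start, and in 1.55% of all windows. Its shorter form TGACGT, which every TGACGTCA also holds, was found in Rab3a, 37 bases before the start, and in Syn1, and in 6.47% of all windows. GGGCGG, the GC box, was found in 5 of the 9 windows, 1 each of Rab3a, Sv2a, Syp, Syt1 and Syt11, and in 32.7% of all windows. The Cplx2 window held none of these letters. Its RefSeq start lies 68793 bases before the start of the gene in GENCODE, so this window is the promoter of the longer transcript.

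In GRCm38 with GENCODE M21, Snap25 lies at chr2:136713453-136782428 (+), Vamp2 at chr11:69088490-69092384 (+), Syt1 at chr10:108497650-109010982 (-), Syt11 at chr3:88744700-88775164 (-) and Cplx2 at chr13:54371349-54383917 (+). Rab3a lies at chr8:70754679-70758677 (+), Syp at chrX:7638471-7653256 (+), Sv2a at chr3:96181151-96195521 (+) and Syn1 at chrX:20860511-20921004 (-). Strand use in counting is not given in the labels, so reads of Syn1 and of Timp1 and Araf, of Rab3a and Mpv17l2, and of Syp and its antisense gene Gm14703, which overlap on opposite strands, cannot be told apart from position alone. Timp1 was listed at a mean of 92.0 CPM in astrocyte-like cells and 1.47 in neuron-like cells, and Mpv17l2 at 126 in neuron-like and 58.9 in progenitor-like cells. Gm14703 was at 11.4 CPM in neuron-like and 1.98 in progenitor-like cells, and Araf at 70.8 and 42.2, so Mpv17l2, Gm14703 and Araf each had a higher mean in the class where the gene they overlap was higher; their part in its level was not tested.

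The first comparison set neuron-like against progenitor-like cells of the same tumours. Of the 9 genes, 8 were higher in neuron-like cells in 4 of 4 tumours and passed limma's test at an adjusted p of 0.05, Cplx2 did not, and none was lower. Over all 9991 genes tested, 30.3% passed in either direction, 12.3% as higher and 18% as lower. The median difference of the 9 genes was 0.44 on the deposited log2 scale, beside -0.01 over all genes tested. Levels below are in CPM, and differences are of mean log2(UMI/size factor + 1) per cell, a scale that understates the change of sparse genes.

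**Figure D1:**
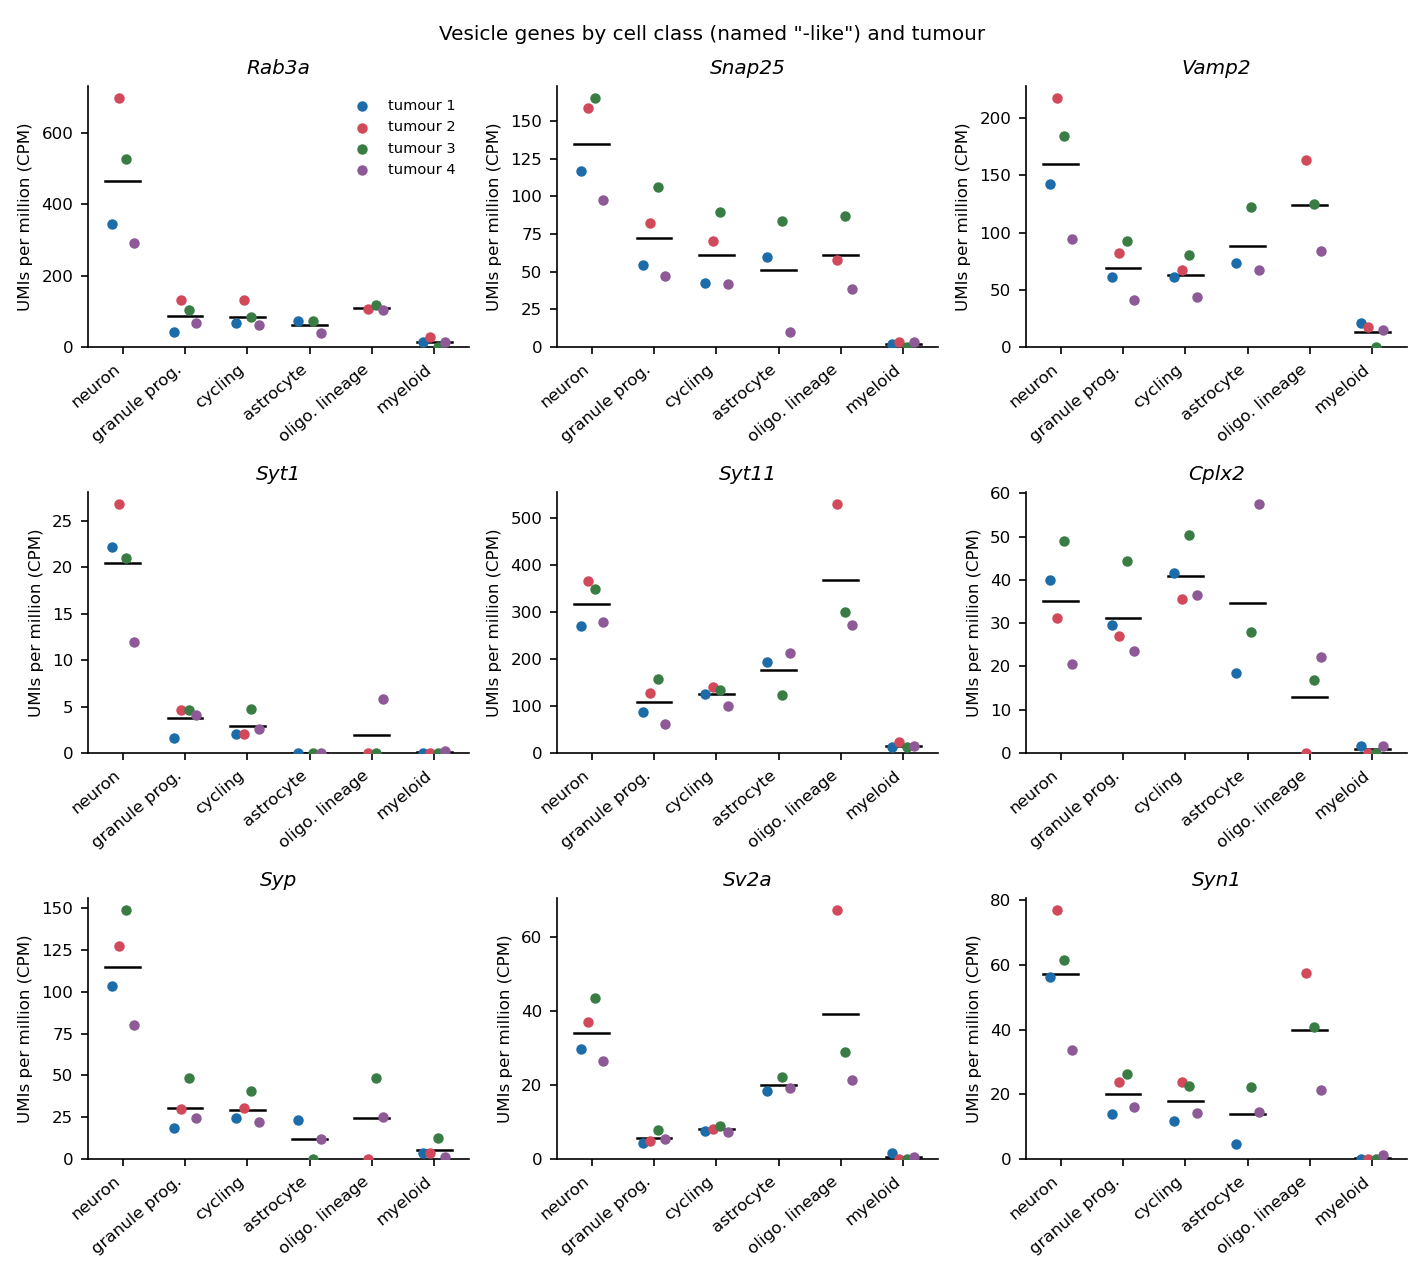
Level in CPM (vertical axis) of each vesicle gene in 6 cell classes; each point is 1 tumour, each black line the mean over tumours, and a class with under 10 cells in a tumour has no point there. Neuron-like cells of Rab3a sit between 291 and 698, above every other class drawn, while the neuron-like points of Cplx2, 20.5 to 49.0, lie among those of the progenitor classes.

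Rab3a, the small GTPase of synaptic vesicles, was at 344, 698, 528 and 291 CPM in the neuron-like cells of tumours 1 to 4 and at 56.9, 112, 93.6 and 63.6 in the progenitor-like cells. Every neuron-like value lay above every progenitor-like value. The ratio was 6.04, 6.26, 5.64 and 4.57, and the difference was 1.68 (SE 0.13, n = 4, limma adjusted p = 0.000164). With each cell thinned to 4900 UMIs, Rab3a was seen in 78.6%, 94.6%, 90.3% and 77.4% of neuron-like cells and in 22.4%, 35.9%, 32.6% and 23.1% of progenitor-like cells. Without thinning the shares were 90.4% to 97.6% and 38.4% to 51.7%. Neutrophil-like cells of tumour 4 are given beside such shares as a non-neural reference. They showed Rab3a in 7.14% of 84 thinned cells (4.95% of all 384, exact 95% interval 3.00% to 7.62%). Their median was 4030.5 UMIs against 9065.5 in the neuron-like cells there. The part of free RNA, doublets or the cells' own transcripts in these shares was not tested.

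Snap25 encodes the membrane SNARE that supplies a pair of helices to the fusion complex. It was at 117, 159, 165 and 97.3 CPM in neuron-like cells and at 46.8, 70.8, 102 and 44.3 in progenitor-like cells. Neuron-like cells were higher within each tumour, but the groups overlapped, since tumour 3's progenitor-like cells exceeded tumour 4's neuron-like cells. The difference was 0.44 (SE 0.07, n = 4, limma adjusted p = 0.0026). Vamp2, the vesicle SNARE, was at 142, 217, 185 and 94.0 CPM against 61.4, 69.9, 86.5 and 42.4. Its groups did not overlap, the ratio lay between 2.13 and 3.11, and the difference was 0.53 (SE 0.07, n = 4, limma adjusted p = 0.00151). Snap25 was also seen in 18.6% to 37.2% of thinned progenitor-like cells, against 4.76% of the neutrophil-like cells. Vamp2 was seen in 42.9% to 60.5% of thinned neuron-like cells and in 14.2% to 31.95% of thinned progenitor-like cells. The neutrophil-like cells of tumour 4 showed Vamp2 in 13.1% of thinned cells, close to the lowest progenitor-like share. In granule progenitor-like cells the lowest thinned share of Vamp2, 12.04%, lay below that reference.

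The synaptotagmins differed in level and in where they were seen. Syt1, the fast calcium sensor of release, was at 22.2, 26.8, 21.02 and 11.9 CPM in neuron-like cells, from 15, 84, 27 and 18 UMIs. In progenitor-like cells it was at 1.87, 2.83, 3.82 and 3.36 CPM, so every neuron-like value was above every progenitor-like one, by 3.55-fold to 11.9-fold. It was a rare transcript: thinned neuron-like cells showed it in 6.60% to 16.7% of cells and progenitor-like cells in 0.737% to 1.54%, beside 1 of 84 thinned neutrophil-like cells (1.19%). In tumour 4, over all cells, it was at 3.36 CPM in progenitor-like cells from 16 UMIs, at 0.588 in neutrophil-like cells and at 0.212 in myeloid-like cells, each of the immune values from 1 UMI. The difference of Syt1 was 0.19 (SE 0.04, n = 4, limma adjusted p = 0.01).

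Syt11, a synaptotagmin that does not bind calcium and acts on vesicle recycling, was at 270, 366, 348 and 279 CPM in neuron-like cells and at 112, 124, 147 and 80.6 in progenitor-like cells. The ratio was 2.37 to 3.46 with no overlap, and the difference was 1.01 (SE 0.07, n = 4, limma adjusted p = 0.000115). The thinned shares of Syt11 in progenitor-like cells, 24.3% to 47.8%, stood above that of neutrophil-like cells, 13.1%.

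Cplx2, which encodes complexin 2, the SNARE-binding clamp and activator, was at 40.0025, 31.3, 49.0 and 20.5 CPM in neuron-like cells and at 37.0, 30.3, 43.6 and 29.8 in progenitor-like cells. The groups overlapped, with ratios of 1.08, 1.03, 1.12 and 0.688. On the log2 scale the difference was -0.02 (SE 0.04, n = 4, limma adjusted p = 0.768), lower in 3 of 4 tumours. Thinned shares of Cplx2 were 9.43% to 22.1% in neuron-like cells and 11.2% to 18.4% in progenitor-like cells, against 2.38% in the neutrophil-like cells of tumour 4. The other tumours held too few neutrophil-like cells for such a reference. Its paralog Cplx1, encoding complexin 1, was higher in neuron-like cells, with a mean of 71.1 CPM against 30.1 and a difference of 0.34 (SE 0.07, n = 4, limma adjusted p = 0.00617).

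Syp encodes synaptophysin, an abundant protein of the vesicle membrane. It was at 104, 127, 149 and 80.1 CPM in neuron-like cells and at 22.1, 28.01, 43.6 and 23.3 in progenitor-like cells, with no overlap. The difference was 0.63 (SE 0.08, n = 4, limma adjusted p = 0.00109). Sv2a, a vesicle glycoprotein with the fold of a transporter, was at 29.6, 37.0, 43.6 and 26.5 CPM against 6.42, 5.65, 7.79 and 6.30. Its ratio was 4.20 to 6.54, and the difference was 0.28 (SE 0.04, n = 4, limma adjusted p = 0.00217). Syn1, which encodes synapsin I and whose promoter held TTCAGCACC, was at 56.3, 76.9, 61.5 and 33.8 CPM against 12.5, 23.3, 23.9 and 15.1. The groups did not overlap, the ratio was 2.23 to 4.50, and the difference was 0.35 (SE 0.07, n = 4, limma adjusted p = 0.00766).

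**Figure D2:**
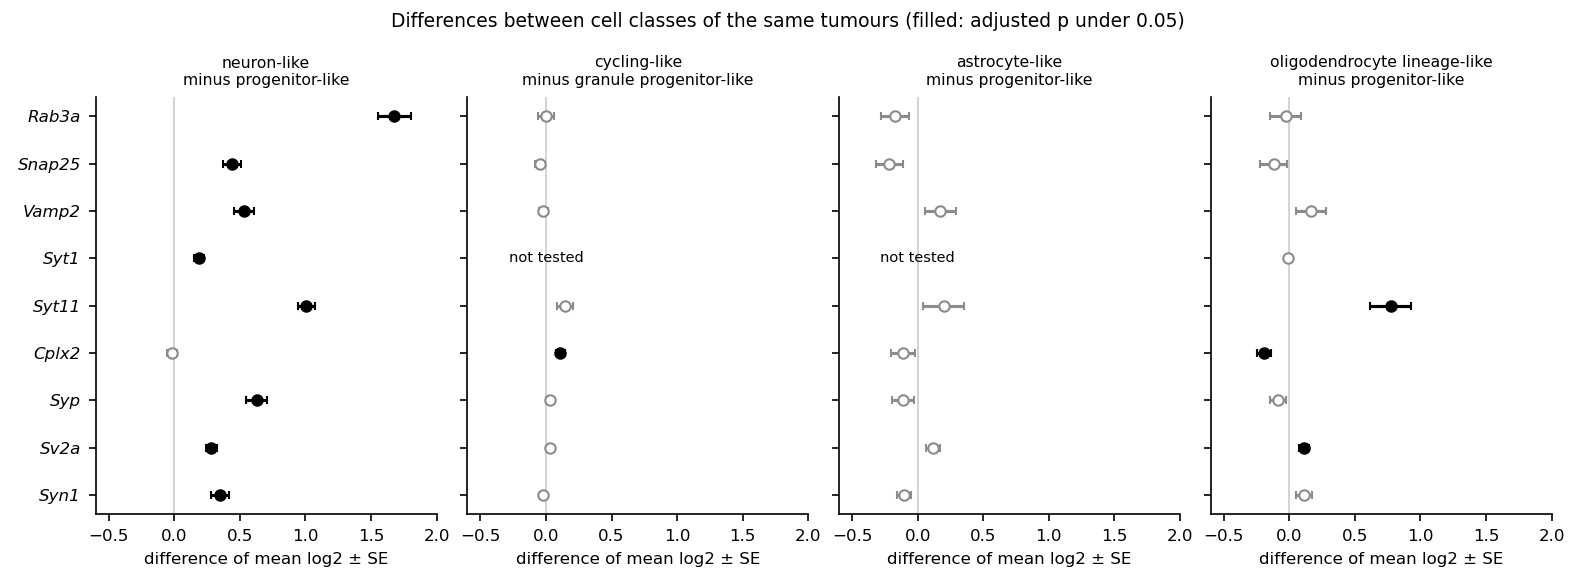
Difference of mean log2 value (horizontal axis, with SE) between cell classes of the same tumours for each vesicle gene, in 4 comparisons; filled points passed limma's test at an adjusted p of 0.05. In the first panel 8 points are filled and lie right of 0, from 0.19 for Syt1 to 1.68 for Rab3a, while Cplx2 lies at -0.02.

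The 8 genes passed again when any 1 tumour was left out. In a fit without the tumour as a block 0 of the 9 passed, as did 4 of 9991 genes over all, and the adjusted p of the 8 genes ran from 0.0613 to 0.922; that fit sets values across tables that were normalized separately. On log2(CPM + 10) of summed UMIs the same 8 genes passed and the split over all genes moved from 1233 higher and 1797 lower to 2486 higher and 1929 lower. In tumour 4, myeloid markers summed to 845 CPM in neuron-like and 828 in granule progenitor-like cells, and neutrophil markers to 621 and 624, beside 29.6 to 236 and 7.01 to 93.3 in the neuron-like cells of the other tumours. Neuron-like levels were lowest in tumour 4 for every vesicle gene but Syt11, and the part of these immune transcripts in that was not tested.

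Single cells of equal depth showed how far the genes were seen together. After thinning to 4900 UMIs, neuron-like cells of tumours 1 to 4 held a mean of 3.36, 3.98, 3.98 and 3.23 of the 9 genes, and progenitor-like cells 1.46, 1.80, 2.05 and 1.15. At least 3 of the genes were seen in 76.2%, 88.6%, 85.8% and 66.0% of neuron-like cells and in 15.2%, 26.2%, 33.0% and 10.9% of progenitor-like cells. Cells with 5 or more made up 11.9% to 35.4% of neuron-like and 0.491% to 4.15% of progenitor-like cells, and no cell of the named classes held all 9. Myeloid-like cells of tumours 1, 2 and 4 held none in 74.1%, 75.4% and 77.6% of cells. These shares are per class and tumour and carry no test over cells.

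**Figure D3:**
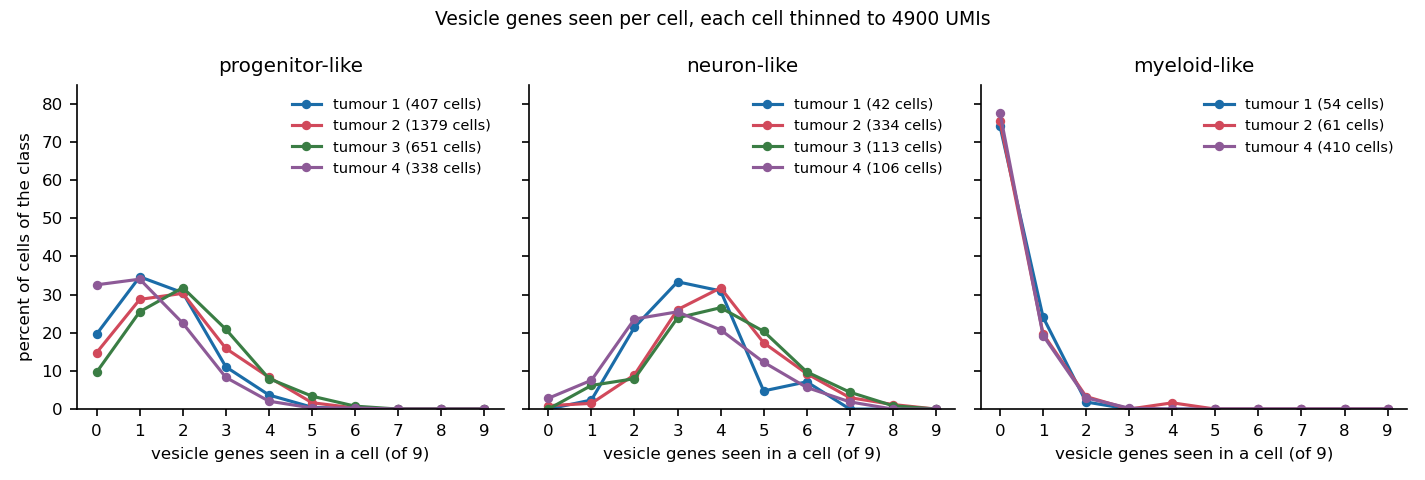
Percent of cells (vertical axis) in which 0 to 9 vesicle genes were seen (horizontal axis) after thinning every cell to 4900 UMIs, by class and tumour; cells below that depth were left out. Progenitor-like cells peak at 1 or 2 genes, neuron-like cells at 3 or 4 and myeloid-like cells at 0 in every tumour drawn.

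Within the granule lineage, clusters of each tumour were placed by their neuron marker score, the mean log2 ratio of 12 neuron markers to all other granule lineage cells of that tumour. Tumour 2 had 2 neuron-like clusters. The larger, of 347 cells and led by Pnoc, Cntn2, Dpysl3 and Neurod2, had Rab3a at 833 CPM, Syt1 at 36.5, Sv2a at 48.3 and Syn1 at 92.1. The other, of 147 cells and with Neurod1 among its leading genes, had 450, 9.05, 16.3 and 48.9 CPM for the same genes. A granule progenitor-like cluster of 190 cells in that tumour had Rab3a at 277 CPM, Syt1 at 6.70 and Sv2a at 8.71. The other granule progenitor-like clusters of tumour 2 had Rab3a at 77.2 to 93.3 CPM, and Syt1 and Sv2a each at 0 to 4.14. A cycling-like cluster of 97 cells in tumour 2 had Rab3a at 292 CPM, Syt1 at 4.65 and Sv2a at 16.3. The other cycling-like cluster there, of 313 cells, had 80.9, 1.23 and 5.64 CPM for these genes. Cplx2 was at 31.5 and 30.8 CPM in the 2 neuron-like clusters and at 17.4 in the cluster of 190 cells. In the other granule progenitor-like clusters of tumour 2 it was at 20.3 to 37.3. The cells of a cluster come from 1 tumour, so these values are descriptions with no test.

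**Figure D4:**
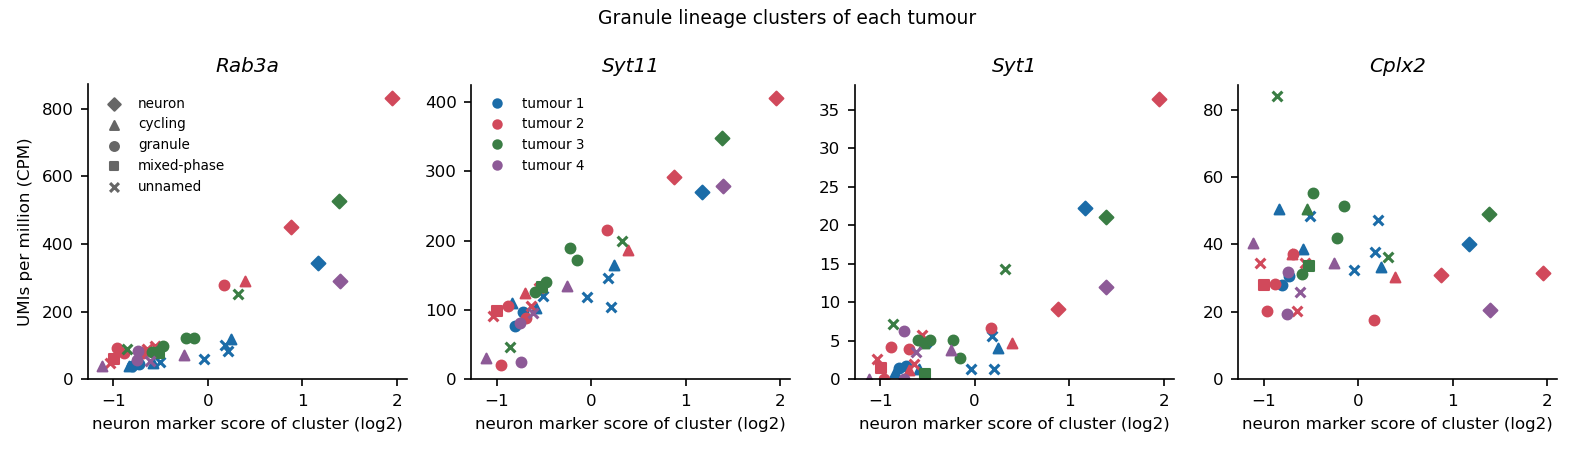
Level in CPM (vertical axis) of 4 vesicle genes against the neuron marker score (horizontal axis) of each granule lineage cluster; colours are tumours and symbols are classes. Rab3a and Syt11 climb from left to right, Syt1 is below 15 CPM in every cluster but 3 neuron-like ones, and Cplx2 is between 17.4 and 84.2 across the range of scores.

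The rest of the vesicle cycle and the REST repressor complex were read from 9 lists of 108 further genes. Of these, 91 were in every table and 72 passed the detection filter. In neuron-like against progenitor-like cells 37 were higher and 8 lower, with a median difference of 0.08, beside 12.3% higher, 18% lower and a median of -0.01 over all genes tested. SNARE regulators were higher in 6 of 10 tested and lower in 0, vesicle membrane proteins higher in 8 and lower in 2 of 12, and Rab3 cycle and active zone genes higher in 8 and lower in 0 of 13. Vesicle recycling genes were higher in 6 and lower in 2 of 14, and SNARE proteins other than the members higher in 3 and lower in 2 of 10. Genes of the REST repressor complex were higher in 2 and lower in 1 of 7, beside 30.3% of all genes passing in either direction, and of 6 vesicle transmitter transporters only Slc17a6 was tested. Of 10 further calcium sensors only Syt13 passed the detection filter, and it was lower. These lists were drawn up with results of these data known, and their counts are descriptions.

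The largest positive difference that passed was of Synpr, encoding the vesicle membrane protein synaptoporin (0.63, 123 CPM against 33.3). Others among the largest were the endocytic scaffold Itsn1 (0.51), the REST corepressor Rcor2 (0.49, 192 CPM against 102), the endosomal SNARE Stx7 (0.44), the vesicular glutamate transporter Slc17a6 (0.41, 72.2 CPM against 20.6), Bin1 (0.39), the proton pump accessory subunit Atp6ap1 (0.38), the clathrin adaptor subunit Ap2m1 (0.35) and Cplx1 (0.34). Each was higher in 4 of 4 tumours, with limma adjusted p from 0.000324 to 0.0161. The 5 largest negative differences that passed were of the clathrin light chain Cltb (-0.59, 120 CPM against 232), Syt13 (-0.49, 44.8 against 101), the Golgi SNARE Stx6 (-0.31), Sypl (-0.19) and the histone deacetylase Hdac1 (-0.18), each lower in 4 of 4 tumours. Rest, the gene of the repressor itself, was at 4.88 CPM in neuron-like and 6.87 in progenitor-like cells; its difference was -0.02 (SE 0.02, n = 4, limma adjusted p = 0.384), lower in 4 of 4 tumours.

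**Figure D5:**
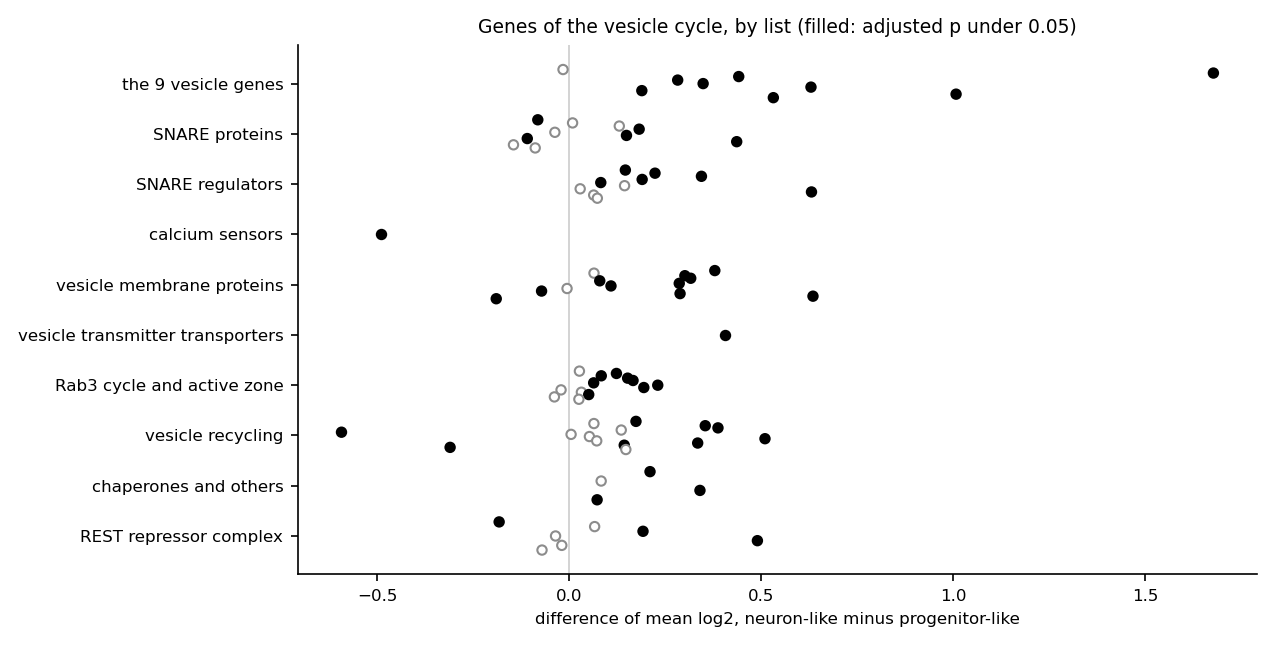
Difference of mean log2 value, neuron-like minus progenitor-like cells (horizontal axis), of every tested gene of the vesicle and REST repressor complex lists (rows). Filled points passed limma's test at an adjusted p of 0.05. The 9 vesicle genes span -0.02 to 1.68, and the other lists span -0.59 to 0.63.

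The second comparison set cycling-like against granule progenitor-like cells. Of 8 genes tested 1 was higher, Cplx2, beside 12.2% of 10328 genes higher, 4.7% lower and 16.9% passing in either direction; Syt1 did not pass the detection filter, at 2.06, 2.05, 4.75 and 2.57 CPM against 1.55, 4.58, 4.60 and 4.11. Cplx2 was at 41.6, 35.6, 50.5 and 36.4 CPM in cycling-like cells and at 29.5, 27.1, 44.5 and 23.5 in granule progenitor-like cells. It was higher in 4 of 4 tumours although the groups overlapped, with a difference of 0.11 (SE 0.03, n = 4, limma adjusted p = 0.0395). The call was lost in 9 of 13 alternatives, among them thinning of the cells (0.07, adjusted p = 0.227), a lower clustering resolution, and the removal of any 1 tumour; over the alternatives the adjusted p ran from 0.0125 to 0.999853. Rab3a was at means of 85.2 and 85.7 CPM, Syp at 29.3 and 30.3, and Syn1 at 18.04 and 20.1. None of the other 7 genes tested passed. At an unadjusted p under 0.05, 3 of the 8 passed, beside 3348 of 10328 genes over all. Syt11 was called higher with no doublet removal (0.21, adjusted p = 0.0272). On log2(CPM + 10) Snap25 was lower in cycling-like cells (-0.22, adjusted p = 0.0432), and the split over all genes moved from 1258 higher and 485 lower to 1160 and 1100.

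From the lists 73 further genes, REST repressor complex genes included, were tested in that comparison. Of these 4 were higher and 4 lower, beside 12.2% and 4.7% of all 10328 genes tested. The largest differences among those that passed as higher were Kdm1a of the REST repressor complex (0.16), Picalm (0.11) and Unc13a (0.08). As lower they were the chaperone gene Hspa8 (-0.21), Syn2 (-0.13, 13.6 CPM against 27.9) and Synpr (-0.10). Rest was at 7.75 and 6.02 CPM (difference 0.04, limma adjusted p = 0.141).

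Glial classes were small, and their values rest on few UMIs. Astrocyte-like cells numbered 11, 24 and 29 in tumours 1, 3 and 4. Against progenitor-like cells of the same tumours 0 of 8 genes tested passed limma's test. Over all 11049 genes 2.45% passed, 1.86% as higher and 0.588% as lower. At an unadjusted p under 0.05 there were 0 of the 8, beside 1883 of the 11049. Syt1 had no UMI in them, which allows up to 13.8, 16.7 and 7.18 CPM in tumours 1, 3 and 4. Sv2a was at 18.4, 22.3 and 19.2 CPM in astrocyte-like and 6.42, 7.79 and 6.30 in progenitor-like cells, and although these do not overlap the difference of 0.12 did not pass (SE 0.06, n = 3, limma adjusted p = 0.294). Syp was at 23.0, 0 and 11.97 CPM against 22.1, 43.6 and 23.3; without tumour 1 it was called lower (-0.22, adjusted p = 0.0369, over the alternatives 0.0369 to 0.999847). Of 77 further genes tested from the lists 1 was higher and 1 lower. The higher was Vamp8, a SNARE of endosomes and secretory granules (0.31, limma adjusted p = 0.036, 50.0 CPM against 10.1). The lower was Hdac2 of the REST repressor complex (-0.66). In the astrocyte-like cells granule progenitor markers summed to 1870 to 4253 CPM, neuron markers to 1104 to 2341, and myeloid markers to 244, 307 and 1264 CPM in tumours 1, 3 and 4, against 246, 35.0 and 828 in granule progenitor-like cells. Their part in these levels was not tested. Rest was at 12.4 CPM against 6.59 and did not pass (0.02, limma adjusted p = 0.831).

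Oligodendrocyte lineage-like cells, precursors and oligodendrocytes joined, numbered 16, 41 and 54 in tumours 2, 3 and 4. Of the 9 genes 2 were higher than in progenitor-like cells, Syt11 and Sv2a, and 1 was lower, Cplx2, beside 9.22% of 11201 genes higher, 13.1% lower and 22.3% in either direction. Syt11 was at 529, 299 and 272 CPM in the oligodendrocyte lineage-like cells and 124, 147 and 80.6 in the progenitor-like cells. These groups did not overlap, and the difference was 0.77 (SE 0.16, n = 3, limma adjusted p = 2.79e-05), which passed in 12 of 12 alternatives. The level of Syt11 there overlapped that of neuron-like cells. Part of limma's variance estimate comes from other genes, so p-values of this comparison do not rest on the spread over 3 tumours alone.

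Sv2a was at 67.3, 28.9 and 21.2 CPM in the oligodendrocyte lineage-like cells and 5.65, 7.79 and 6.30 in the progenitor-like cells, with a difference of 0.11 (SE 0.04, n = 3, limma adjusted p = 0.028). That call was lost in 6 of 12 alternatives, among them leaving out tumour 3 (0.09) or tumour 4 (0.13), with adjusted p from 0.0233 to 0.419 over the alternatives. Cplx2 was at 0, 16.9 and 22.2 CPM against 30.3, 43.6 and 29.8, with a difference of -0.19 (SE 0.05, n = 3, limma adjusted p = 0.00402). The 0 in tumour 2 came from 16 cells with 104028 UMIs in all, where a low level can go unseen. The Cplx2 call was lost in 3 of 12 alternatives, without tumour 3 (adjusted p = 0.202), with thinned cells (0.051) and on log2(CPM + 10) (0.0912), within a range of 0.00307 to 0.202. On that last scale the split over all genes was 789 higher and 82 lower, against 1033 and 1463. Granule progenitor markers summed to 1625 to 3758 CPM and neuron markers to 2791 to 3816 in these cells. Oligodendrocyte markers summed to 17111, 1630 and 718 CPM in tumours 2, 3 and 4, so the make-up of the class differed. The part of these transcripts in the levels was not tested.

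Snap25 was at 57.7, 86.7 and 38.6 CPM in oligodendrocyte lineage-like cells and 70.8, 102 and 44.3 in progenitor-like cells, lower in 3 of 3 tumours without passing (-0.12, limma adjusted p = 0.416). Among 85 further genes of the lists, REST repressor complex genes included, 10 were higher and 9 lower. Over all 11201 genes 9.22% were higher and 13.1% lower. Rcor2, Hdac1 and Hdac2 of the REST repressor complex were among the lower. The dynamin gene Dnm3 was at 96.4 CPM against 1.57 (difference 0.56, limma adjusted p = 1.62e-12), Stx7 had a difference of 0.28 and the vesicle carrier protein gene Scamp5 of 0.23, both passing. Hdac2 (-0.90), the SNARE disassembly adaptor Napa (-0.61) and Syt13 (-0.50) had the largest negative differences among those that passed. Rest was at 14.8 CPM against 5.84, higher in 3 of 3 tumours without passing (0.06, limma adjusted p = 0.198).

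The order of class means differed between the genes. Neuron-like cells stood first for Rab3a, Snap25, Syt1, Syp, Vamp2 and Syn1, and their values did not overlap the next class for Rab3a (mean 465 ± 186, SD, n = 4, against 109 ± 8.22, n = 3, in oligodendrocyte lineage-like cells), Syt1 and Syp. For Snap25, Vamp2 and Syn1 the ranges of the first and the next class overlapped. For Syt11 (366 ± 141, n = 3) and Sv2a (39.1 ± 24.7, n = 3) oligodendrocyte lineage-like cells had the highest mean and overlapped neuron-like cells (316 ± 48.5 and 34.2 ± 7.67, n = 4). Cplx2 had its highest level, 69.0 CPM, in the skeletal muscle-like cells, a class of 52 cells found in tumour 1, and its cycling-like, neuron-like, astrocyte-like and granule progenitor-like values overlapped, at means of 41.0, 35.2, 34.6 and 31.1. In myeloid-like cells every member had a mean of at most 15.5 CPM.

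Likeness of pattern was taken over 30 pairs of class and tumour with at least 10 cells, from 11 classes, as Pearson's r of log2(CPM + 10) with 13140 other genes. The points share libraries and include immune cells, in which all the members were low, so high values are usual and no test was made. Among the genes most like Rab3a were Stmn4 and Chgb (both r = 0.96). Those most like Snap25 were Gdap1 (0.98), Elavl3 and Lhx1 (both 0.97), and those most like Vamp2 were Ppp3ca (0.96), Ndrg3 and Pick1 (both 0.95). Among the genes most like Syn1 were Apbb1 (0.96) and Rbfox1 (0.95). Syt11 was most like Gpm6a (0.96), Serp2 and Tacc2 (both 0.95). For the sparser Syt1 they were Darc (0.93), Smim18 and Nxph4 (both 0.92), for Syp Wdr47, Srrm4 and Csrnp3 (each 0.93) and for Sv2a Apc2 (0.95), Aplp1 and Timp3 (both 0.94). Cplx2 was most like Tead1 (0.94), RP24-312G4.2 (0.92) and Rab23 (0.92). Between the members r ran from 0.37 for Sv2a and Cplx2 to 0.92 for Rab3a and Syn1.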

How the data were processed

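Per the submitters' processing notes, the tools were Cell Ranger and Seurat and the build mm10; the labels give neither versions nor strand settings. The authors deposited 1 table of log2 values per tumour, genes by cells. Every value above 0 was log2(UMI/size factor + 1), since the UMI counts came out whole within a relative tolerance of 0.0001 in all 4 tables; size factors average 1 in each table, so tables were normalized separately. The table of tumour 1 listed 33219 genes, the others 13622 to 15359, each seen in at least 5 cells.

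Clustering (scanpy 1.11.5, leidenalg 0.10.2; 1000 variable genes, 30 components, 15 neighbours, resolution 1, no vesicle gene among them) first split all tumours jointly, then granule lineage cells within each tumour. This layout and its naming thresholds were chosen after earlier clusters were seen. Clusters failing the marker rule stayed unnamed. No cell failed filters of 500 genes and 10% mitochondrial UMIs. The doublet caller marked 21 of 6509 cells (0.323%), against about 99.5 expected at an assumed rate of 0.8% per 1000 cells. Doublets may therefore remain, and whether the caller missed them was not tested. Removing the 100 highest-scoring cells was tried after seeing the data.

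The main test was limma 3.58.1 (R 4.3.3, variance trend, robust) on mean log2 per tumour and class, with the tumour as a block because both classes come from the same tumour, over classes of at least 10 cells in at least 3 tumours, genes detected in 5% of cells of either class, Benjamini-Hochberg adjusted over all of them. On simulated data of the neuron-like comparison (9825 genes in the fit) 0 of 9625 unchanged genes were called, and 7 of 67 genes changed 1.5-fold, 25 of 66 changed 2-fold and 51 of 67 changed 4-fold. The simulated cells were Poisson draws from the pooled progenitor-like profile, with a spread set by hand and no clustering step. These counts therefore give no rate of false calls for the real classes. Alternatives were another scale, thinned cells, other filters, clusterings and doublet handling, no block, and leaving out each tumour. Intervals are exact binomial at 95%, and limits for no count use 3 counts; both cover counting error only.

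The 9 genes were taken by name. From the further lists, the 10 largest positive and 5 largest negative called differences are named for neuron-like cells, up to 3 each way elsewhere, and Rest; like genes are the 3 highest by r; a few genes that these rules pick are not reported here. The members and lists were chosen with earlier results of these data known.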

Additional observations from a re-analysis of the deposited data

Results flagged for a closer look

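Over the tumours, 45 groups of 4 values of 1 gene in 1 class were checked for a tumour far from the others by Dixon's ratio, and 4 stood out; chance marks about 1 in 20 such groups. In 2 of the 4, both in myeloid-like cells, the other tumours were at 0, which fixes the ratio at 1 for any UMI, so these say nothing about the spread. Syt1 in granule progenitor-like cells was 1.55 CPM in tumour 1, below 4.58, 4.60 and 4.11 in tumours 2 to 4. Syt11 in myeloid-like cells was 22.6 CPM in tumour 2, above 12.9, 12.5 and 14.0 in tumours 1, 3 and 4. In myeloid-like cells of tumour 4 Syt1 was at 0.212 CPM and Syn1 at 1.06 CPM, with no UMI of either in the myeloid-like cells of tumours 1 to 3, where 0 counts allow up to 4.82, 4.84 and 37.6 CPM. Tumour 4 had 1 UMI of Syt1 and 5 of Syn1, below those limits, so a difference between the tumours was not detectable at this depth.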

How the results depend on the processing

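In neuron-like against progenitor-like cells, 8 of the 9 genes passed in all alternatives with the tumour as a block and 0 passed with no replicate block; leaving out each tumour gave 8 to 8. In cycling-like against granule progenitor-like cells, where 1 passed, 2 passed on log2(CPM + 10) and with no doublet removal, 0 passed with thinned cells, the 1% filter, no detection filter, resolution 0.5 or no replicate block, and 0 to 0 passed with a tumour left out. For astrocyte-like cells 0 passed, and 0 to 1 with a tumour left out. For oligodendrocyte lineage-like cells 3 passed, 1 with thinned cells and 1 to 3 with a tumour left out. With a tumour left out of a glial comparison the fit rests on 2 tumours. The causes were not tested. No called difference turned direction.

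Over all genes the neuron-like count of 3030 became 4 without the block, 1630 without tumour 2 and 1979 without tumour 3. The cycling-like count of 1743 became 75 without the block, 999 at resolution 0.5, 729 without tumour 2 and 711 without tumour 3. The astrocyte-like count of 271 became 616 on log2(CPM + 10), 61 with no detection filter, 0 without the block (392 at an unadjusted p under 0.05), 422 with no doublet removal, 508 at resolution 0.5 and 523 without tumour 3. The oligodendrocyte lineage-like count of 2496 became 871 on log2(CPM + 10), 980 with thinned cells, 1417 with no detection filter, 1294 without the block and 680 without tumour 3. On log2(CPM + 1) differences read larger, 2.47 for Rab3a and 2.41 for Syt1, since that scale compresses sparse genes less. Depth limits the glial and immune classes, where some genes had no UMI in a tumour.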

Other observations

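Skeletal muscle-like cells of tumour 1, a class with 52 cells and no replicate, held Vamp2 at 115 CPM, Rab3a at 88.9, Cplx2 at 69.0, Syt11 at 39.8 and Snap25 at 31.6, with Syt1 at 0 UMIs. The 5 skeletal muscle markers summed to 10019 CPM there, the 12 neuron markers to 3110 and the 13 granule progenitor markers to 668.

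Clusters left unnamed held 190, 406, 167 and 43 cells in tumours 1 to 4 and entered no comparison. Their Rab3a was at 83.2, 81.7, 183 and 53.7 CPM. In tumour 3 an unnamed cluster of 107 cells had the highest Cplx2 of any granule lineage cluster, 84.2 CPM, with Syt11 at 46.6, and another of 60 cells had Rab3a at 251 and Syt1 at 14.3 CPM. The caller marked fewer doublets than the assumed rate gives, and the share of doublets in these clusters was not tested.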
